A study of Mus musculus with 8 samples.

Results

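The genes of the translation initiation factors were examined in mouse lens fiber cells (FC), in mice exposed to cigarette smoke (CS-exposed) and in untreated Ct mice. The members are the protein-coding rows whose symbol starts with Eif1 to Eif6, leaving out the eIF2 kinases (Eif2ak genes) and the Y-linked copy Eif2s3y, and they number 50 of the 35275 genes listed. The rule reads the symbol and gene type and no measured value, but the family was taken up with earlier results of these data known. Lens FC are the elongated cells that fill the lens, lose their nuclei and organelles as they mature, and hold very large amounts of crystallin.

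All mice were C57BL/6 (C57BL/6J in the study's methods). The CS-exposed mice were born to dams kept in a smoke chamber and were exposed there, whole-body, for 5 hours/day and 5 days/week over 3.5 months, and the untreated Ct mice were age-matched and housed in the animal facility. Each group had 4 libraries, each a pool of the right lenses of 4 mice, from which the epithelium had been removed by dissection. A library is therefore a mean over 4 animals, and the spread between libraries does not show the spread between single mice. The study describes male and female pools in each group, but which library is which was not given. The limma fit below held no term for sex, so differences between the sexes stay in the spread within groups.

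Initiation begins when eIF2, bound to GTP, brings the initiator tRNA to the small ribosomal subunit together with eIF1, eIF1A, eIF3 and eIF5. The cap-binding protein eIF4E, the scaffold eIF4G and the helicase eIF4A form eIF4F, which loads the mRNA, and eIF5B joins the large subunit once the start codon is found. Cells slow this pathway at known points. Kinases phosphorylate eIF2 and so block its exchange factor eIF2B (the integrated stress response), and 4E-BP proteins occupy eIF4E unless mTORC1 phosphorylates them. FC are known for long-lived proteins and for synthesis that ceases as organelles are lost, and most of their RNA is thought to lie in the younger, outer cells. These controls act on proteins, and protein levels and phosphorylation were not analysed here.

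The values are FPKM, fragments per kilobase of gene and per unit of mapped reads, so that levels of different genes can be compared per length. The 8 libraries held an estimated 18100000 to 23300000 fragments. Lens fiber markers were very high in every library, with a summed 135987 to 144819 FPKM over 8 genes, as the labelled tissue would have it. All 7 lens epithelium markers were present too, at a summed 429.5 to 576 FPKM in untreated Ct and 419.5 to 507 FPKM in CS-exposed libraries. The mean was lower in CS-exposed mice for each of the 7, but for only 3 (Itga6, Foxe3 and Gja1) when untreated Ct replicate 3 was left out. All 8 photoreceptor markers, genes of the retina, were higher in CS-exposed libraries, with a summed 28.4 to 91.0 FPKM against 7.28 to 25.3 FPKM and no overlap, and 5 of 6 pigment epithelium markers were higher on average (2.09 to 12.8 against 1.06 to 1.33 FPKM, Best1 listed at 0 throughout). Of the 5 blood and immune markers, 4 were higher on average in CS-exposed libraries, at a summed 0.603 to 21.1 FPKM against 0.406 to 2.01 FPKM, with CS-exposed replicate 4 the highest. Of the 5 ciliary body and iris markers, 4 were higher on average in CS-exposed libraries, at a summed 2.12 to 5.68 FPKM against 1.90 to 3.97 FPKM. Of the 5 vascular and connective markers, 4 were also higher on average, at a summed 0.234 to 0.583 FPKM against 0.137 to 0.657 FPKM, and in both lists the groups overlapped. The part of these other cells in the values below was not tested. In bulk tissue, fewer cells of a type and less RNA per cell cannot be told apart.

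A library stands apart. Xist, which is transcribed from the silenced X chromosome of females, was at 0.0113 FPKM or less in replicates 1 and 2 of both groups and between 41.1 and 49.0 FPKM in replicates 3 and 4 of both. Untreated Ct replicate 3 held 41.1 FPKM of Xist and also 3.59 FPKM of the Y-linked Eif2s3y, whereas the other 3 libraries with high Xist held 0.125 FPKM of Eif2s3y or less. This library also had the highest summed epithelium markers (576 FPKM). Values without it are given below beside the results it moves most.

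Of the 50 genes, 47 reached a mean of 1.0 FPKM in either group and were tested, and 3 did not. Most were abundant for this tissue. Means over the 8 libraries reached 100 FPKM for 9 genes, lay between 10 and 100 FPKM for 27, between 1 and 10 FPKM for 11, and under 1 FPKM for 3. The median member tested stood at 29.3 FPKM, where the median of all 9794 genes tested stood at 4.68 FPKM, and 32 members lay at or above the 75th percentile of all genes tested. Together the members took 0.333% to 0.3595% of the summed FPKM of a library, and 0.976% to 1.02% once the crystallin genes, which take most of it, were set aside. Their SE for the difference between groups had a median of 0.066 on the log2 scale, where the median over all genes tested was 0.12, so that smaller differences could be resolved for them than for the typical gene.

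**Figure D1:**
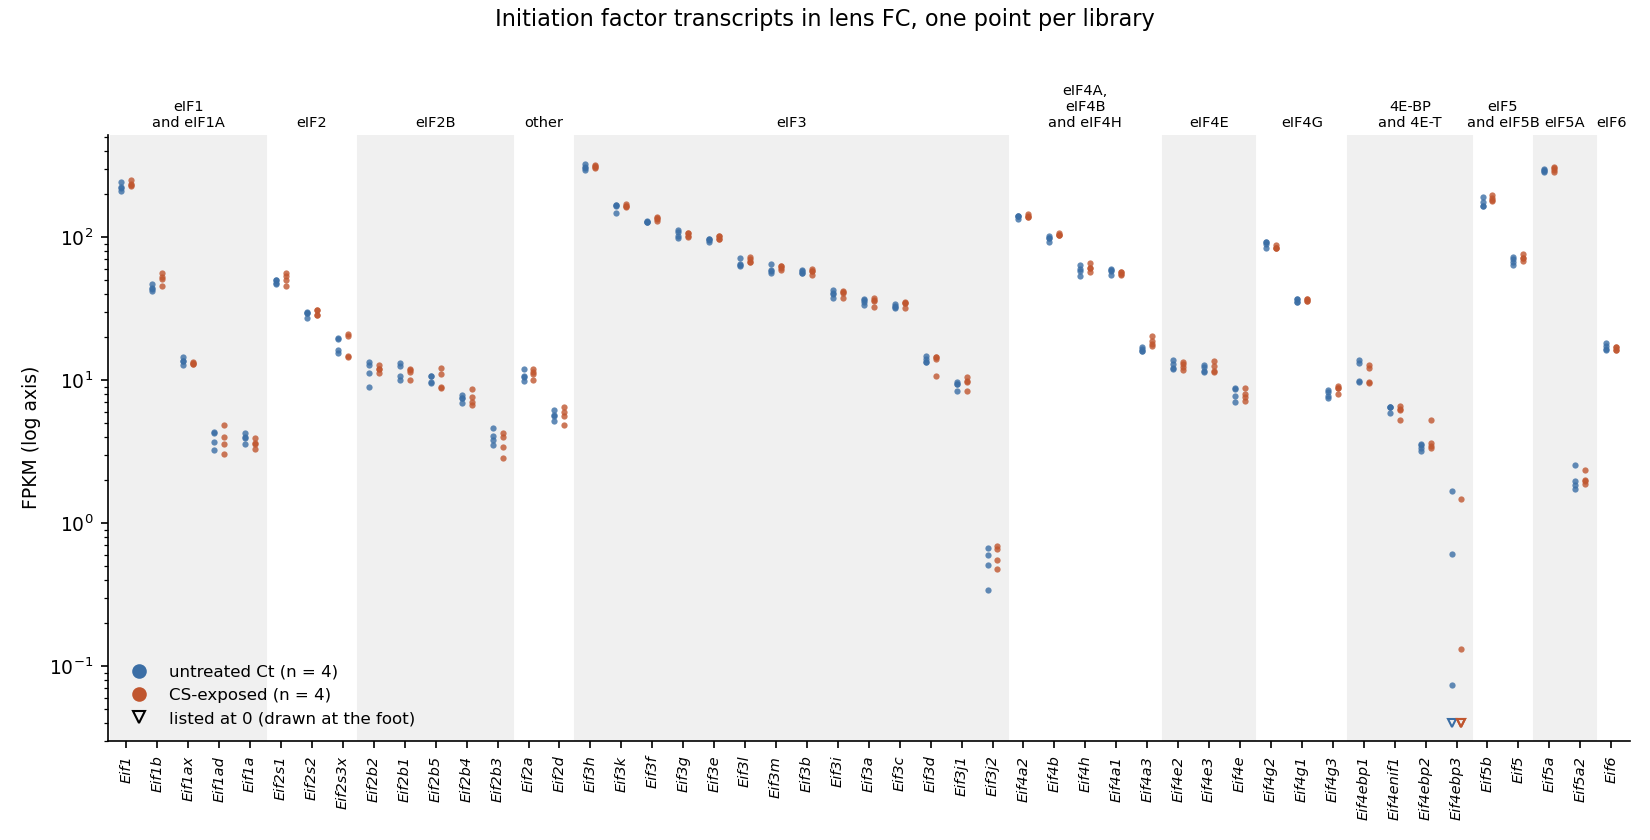
FPKM of the initiation factor genes on a log axis, by complex or family, with a point for each of the 4 untreated Ct and 4 CS-exposed libraries; Eif4e1b, listed at 0 in every library, is not drawn. Levels span from 309.8 FPKM for Eif3h to under 1 FPKM for Eif3j2 and Eif4ebp3, and for nearly all genes the points of both groups lie on top of each other.

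The comparison of CS-exposed with untreated Ct mice asks whether smoke changed the transcripts of these factors in FC. In a limma fit on log2(FPKM + 0.1) over all 9794 genes tested, 2 of the 47 members had an unadjusted p under 0.05, Eif1b and Eif4a3, both higher in CS-exposed mice. That is 4.26% of the members, and over all genes tested the share was 4.83%, with 2.75% higher in CS-exposed mice. The members' share is thus at the background. With limma and Benjamini-Hochberg adjustment over all genes tested, no member had an adjusted p under 0.05 (the smallest was 0.956), nor did any in limma-voom on recovered reads, where 3 members (6.38%) and 4.93% of all genes had an unadjusted p under 0.05. Over all genes, 0.0102% passed the adjusted threshold, which is 1 gene, the non-coding Gm26917, named after its value was seen. Its log2 fold change was -1.34, with an adjusted p of 0.00673 in limma. This count was 0 with eBayes without a trend, without a minimum FPKM, and without untreated Ct replicate 1 or 4 (Gm26917 adjusted p 0.243, 0.0874, 0.0621 and 0.0549), 2 in limma-voom and without both libraries numbered 3, and 5 with a replicate block.

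In direction the members leaned little. Of the 47, 29 had a positive log2 fold change (61.7%, with 51.2% over all genes tested) and 18 a negative one. Their median was 0.018, with 0.0043 over all genes tested. It was 0.010 with 27 positive without untreated Ct replicate 3, and 0.039 with 33 positive without CS-exposed replicate 2. After quantile normalization 23 of 47 were positive and the median was -0.0028, with -0.0018 over all genes tested. Rescaling without the crystallin genes lowered both medians, to -0.0042 for the members, again with 23 positive, and -0.018 over all genes. The members' median stood 0.014 above that of all genes, as in the main fit. That gap was not steady when single libraries were left out. It was 0.00088 without untreated Ct replicate 3, 0.0034 without CS-exposed replicate 1 and 0.034 without CS-exposed replicate 2. The median of single libraries around the gene means varied with an SD of 0.018 between libraries of a group. The members' median is a difference between means of 4 libraries, whose error is smaller than this SD of single libraries. Over all genes, 269 genes with an unadjusted p under 0.05 were higher and 204 lower, and 200 were higher and 287 lower after rescaling without the crystallin genes.

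**Figure D2:**
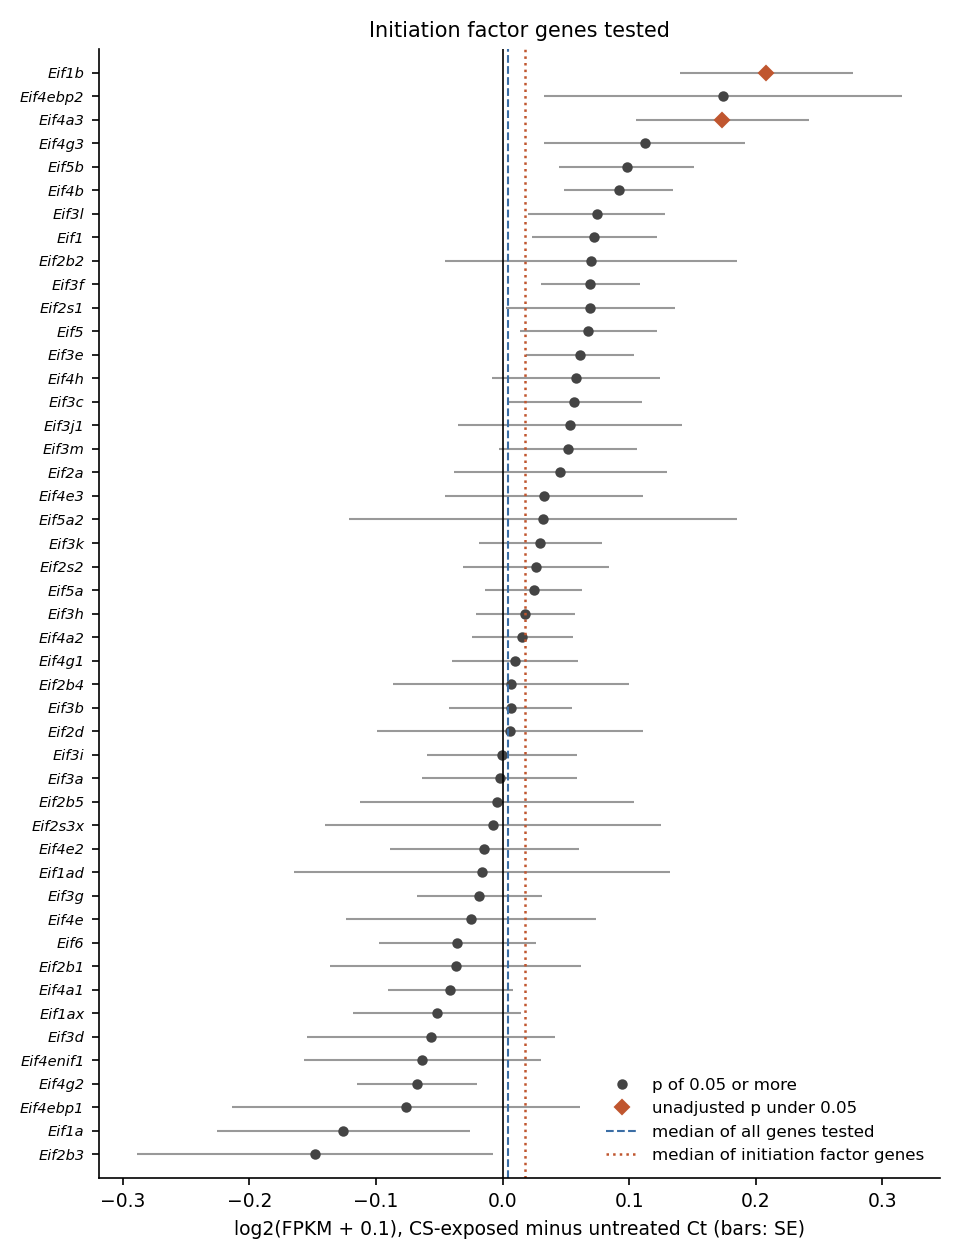
Difference in log2(FPKM + 0.1) between CS-exposed and untreated Ct libraries for the 47 genes tested, with bars for the SE from limma; diamonds mark the 2 genes with an unadjusted p under 0.05. The differences run from -0.15 for Eif2b3 to 0.21 for Eif1b and center near the median of all genes tested (0.0043, dashed).

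Eif1b had the smallest p of the members. It encodes a close relative of eIF1, the small factor that keeps the scanning ribosome open and rejects wrong start codons, and lies on chromosome 9 of GRCm38 from 120492232 to 120495330 on the plus strand. Its level was 42.9, 46.8, 42.2 and 44.2 FPKM in untreated Ct replicates 1 to 4, and 55.9, 50.6, 52.4 and 45.1 FPKM in CS-exposed replicates 1 to 4. CS-exposed replicates 1 to 3 stood above every untreated Ct library, and CS-exposed replicate 4 lay among them, below untreated Ct replicate 2. The means were 44.0 ± 2.00 FPKM (SD, n = 4) and 51.0 ± 4.53 FPKM (SD, n = 4). On the log2 scale this was 0.21 with an SE of 0.068 (limma, unadjusted p = 0.0104, adjusted p = 0.956), and an exact two-sided permutation test over the 70 assignments of libraries gave p = 0.0571. Between 733 and 1082 reads stood behind each value. The unadjusted p was under 0.05 in 21 of 22 alternative settings, including the fit without untreated Ct replicate 3 (unadjusted p = 0.0276), and was 0.0599 when both libraries numbered 3 were left out. Adjusted p values ranged from 0.636 to 0.9998 over these settings.

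Since Eif1 and Eif1b are so alike, their coding sequences are set side by side. How the reads of 150 bases were assigned between them was not tested. Over 339 coding bases each, 275 are identical (81.1%), and the longest run shared without a difference is 25 bases. The first 90 bases of each coding sequence follow, 5′ to 3′, with the 13 bases that differ in capitals. They begin at position 100320130 of chromosome 11 for Eif1 and at position 120492811 of chromosome 9 for Eif1b, both on the plus strand of GRCm38, and come from the GENCODE transcripts.
Eif1: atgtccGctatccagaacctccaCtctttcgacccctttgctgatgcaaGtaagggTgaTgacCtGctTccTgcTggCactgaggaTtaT
Eif1b: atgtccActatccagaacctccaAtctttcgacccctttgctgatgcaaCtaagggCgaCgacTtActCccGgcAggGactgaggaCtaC

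Eif1 itself was 4.84 times as abundant as Eif1b per length. Its level was 243, 223, 211 and 220.5 FPKM in untreated Ct and 232, 227, 235 and 249 FPKM in CS-exposed replicates 1 to 4, and the groups overlapped. Eif1b took 15.0% to 17.3% of the summed FPKM of both genes in untreated Ct and 15.3% to 19.4% in CS-exposed libraries, which also overlapped. Untreated Ct replicate 1 was the highest of its group for Eif1, and without it 4 members had an unadjusted p under 0.05, Eif1, Eif1b, Eif4a3 and Eif4b, which is 8.51% of the members where 5.32% of all genes passed. A search of the transcripts found near-identical copies of 25.9% of the Eif1 transcript in 4 other genes, 3 of which (Gm10157, Gm16378 and Gm6900) reached at most 4.27 FPKM, and no copy of Eif1b. An antisense gene lies under 12.7% of the exon bases of Eif1b, and its level was not analysed here.

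Eif4a3 is the eIF4A relative that sits at the core of the exon junction complex, which is laid down on spliced mRNA, rather than in eIF4F. The gene lies on chromosome 11 from 119288363 to 119300089 on the minus strand. It stood at 16.4, 15.9, 16.1 and 17.03 FPKM in untreated Ct replicates 1 to 4 and at 18.7, 17.2, 20.3 and 17.7 FPKM in CS-exposed replicates 1 to 4. Every CS-exposed library was above every untreated Ct library, although CS-exposed replicate 2 cleared untreated Ct replicate 4 by little. The log2 difference was 0.17 with an SE of 0.068 (limma, unadjusted p = 0.0265, adjusted p = 0.956), and the exact two-sided permutation test gave p = 0.0286, the smallest that 4 against 4 libraries allow. It rested on 465 to 630 reads per library. The call was less steady than that of Eif1b and held in 16 of 22 settings. It was lost without untreated Ct replicate 2 (unadjusted p = 0.0617) or replicate 3 (unadjusted p = 0.0517), and without CS-exposed replicate 1 (unadjusted p = 0.0527) or replicate 3 (unadjusted p = 0.0836). It was also lost in limma-voom (unadjusted p = 0.0697) and without both libraries numbered 3 (unadjusted p = 0.133).

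The groups did not overlap for 3 members, 6.38% of those tested, and over all genes tested this share was 3.08%. Besides Eif4a3 these were Eif4b and Eif3f, and all 3 were higher in CS-exposed mice. Eif4b encodes a partner that stimulates the helicase eIF4A. It was at 101.5, 98.3, 92.8 and 97.8 FPKM in untreated Ct and at 104, 107, 103 and 103 FPKM in CS-exposed replicates 1 to 4. Untreated Ct replicate 3 was the lowest of all 8. The log2 difference of 0.092 had an SE of 0.043 (limma, unadjusted p = 0.0573, adjusted p = 0.956). Its unadjusted p was under 0.05 in 3 of 22 settings, without a minimum FPKM (0.0357), in limma-voom (0.0394) and without untreated Ct replicate 1 (0.0339), and it was 0.144 without untreated Ct replicate 3.

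Eif3f encodes a subunit of eIF3, the large complex that holds the factors on the small ribosomal subunit. Its level was 129.9, 128, 128 and 127 FPKM in untreated Ct and 130.0, 133, 137 and 139 FPKM in CS-exposed replicates 1 to 4. The gap was narrow, since untreated Ct replicate 1 and CS-exposed replicate 1 were nearly equal. The log2 difference was 0.069 with an SE of 0.039 (limma, unadjusted p = 0.102, adjusted p = 0.956), and its unadjusted p passed 0.05 in none of the 22 settings, the lowest being 0.0650. After quantile normalization the difference was 0.022.

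The members with the smallest p in the other direction were Eif4g2, Eif1a and Eif2b3, none of which passed the test. Eif4g2 encodes DAP5, an eIF4G relative without the part that binds eIF4E. It was at 92.3, 89.1, 92.5 and 83.3 FPKM in untreated Ct and at 84.2, 84.3, 88.0 and 84.2 FPKM in CS-exposed libraries, a log2 difference of -0.067 (SE 0.047, limma unadjusted p = 0.182, adjusted p = 0.956). Untreated Ct replicate 4 was the lowest of all 8 libraries, so the groups overlapped. Eif1a, an autosomal gene for eIF1A, the factor that opens the ribosome for scanning together with eIF1, was at 3.98, 3.92, 4.26 and 3.59 FPKM against 3.60, 3.56, 3.32 and 3.92 FPKM, a log2 difference of -0.13 (SE 0.10, limma unadjusted p = 0.235, adjusted p = 0.956). Eif2b3, a subunit of the exchange factor eIF2B, was at 3.82, 4.65, 4.08 and 3.504 FPKM against 3.99, 4.29, 2.84 and 3.42 FPKM, a log2 difference of -0.15 (SE 0.14, limma unadjusted p = 0.314, adjusted p = 0.976). CS-exposed replicate 3 was the lowest of all for both Eif1a and Eif2b3. The difference of Eif2b3 was -0.039 without that library, -0.076 without untreated Ct replicate 2, -0.23 without CS-exposed replicate 2 and -0.029 without both libraries numbered 3, where that of Eif1a was -0.051.

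**Figure D3:**
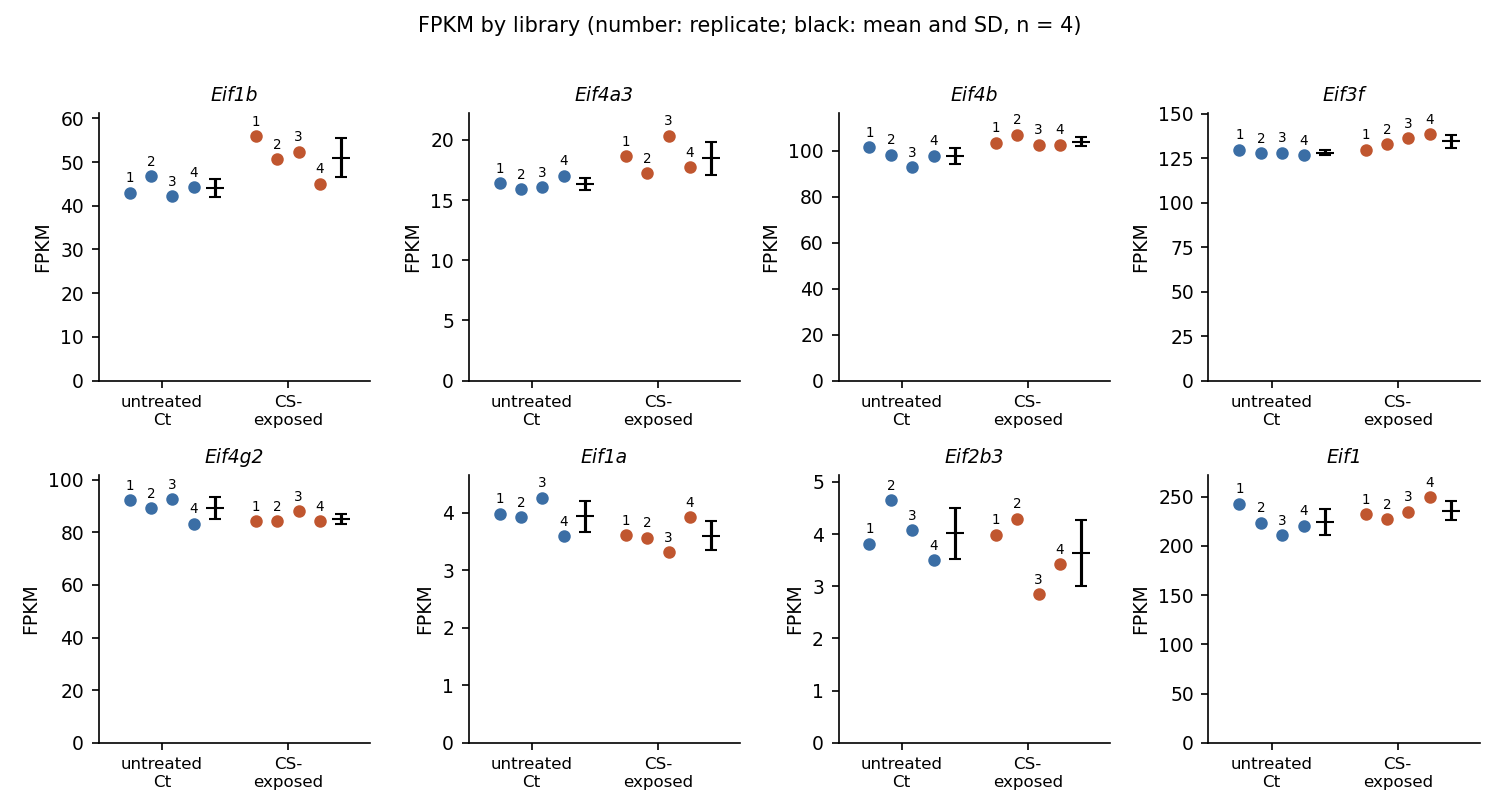
FPKM by library for the 7 genes with the smallest p in each direction or with groups that do not overlap, and for Eif1 as the relative of Eif1b; axes start at 0, numbers give the replicate, and black marks give the mean and SD of 4 libraries. Eif4a3, Eif4b and Eif3f separate the groups by narrow gaps, and CS-exposed replicate 4 of Eif1b lies at 45.1 FPKM among the untreated Ct libraries.

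Among the factors that bring the initiator tRNA, the 3 subunits of eIF2 were unequal in transcript level. Eif2s1, the alpha subunit that the stress kinases phosphorylate, was at 47.0, 49.9, 47.4 and 50.4 FPKM in untreated Ct and at 50.1, 45.3, 53.3 and 56.1 FPKM in CS-exposed libraries. Eif2s2, the beta subunit, ranged from 27.3 to 30.7 FPKM, and Eif2s3x, the gamma subunit, which holds the GTP and the tRNA, from 14.5 to 20.9 FPKM. None of the 3 passed the test, and Eif2s1 was 2.83 times as abundant as Eif2s3x. The eIF2B subunits, Eif2b1 to Eif2b5, were scarcer, with means from 3.83 FPKM (Eif2b3) to 11.8 FPKM (Eif2b2). Eif2b2 was at 11.1, 8.90, 13.3 and 12.8 FPKM in untreated Ct and at 12.8, 11.9, 11.99 and 11.2 FPKM in CS-exposed libraries, with the widest spread in untreated Ct. Eif2a and Eif2d, which bring the initiator tRNA without eIF2, had means of 10.9 and 5.70 FPKM. Eif2a was at 11.96, 10.5, 9.91 and 10.6 FPKM in untreated Ct and at 11.01, 11.9, 11.5 and 9.97 FPKM in CS-exposed libraries, and the groups overlapped.

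Eif2s3x varied between libraries by a CV of 12.3% in untreated Ct and 19.6% in CS-exposed mice, where Eif4a3 and Eif6, at like levels, varied by 2.46% to 7.41%. Its level went with the replicate number and not with the exposure. It was at 15.4, 16.1, 19.6 and 19.4 FPKM in untreated Ct replicates 1 to 4 and at 14.5, 14.8, 20.4 and 20.9 FPKM in CS-exposed replicates 1 to 4. Replicates 3 and 4 of both groups, those with high Xist, were thus above replicates 1 and 2 of both. With a replicate block the SE of Eif2s3x was 0.072 instead of 0.13, and its log2 difference was -0.0075 (limma unadjusted p = 0.919). Its Y-linked copy Eif2s3y was at 10.5, 9.35, 3.59 and 0.0710 FPKM in untreated Ct and at 11.3, 11.1, 0.125 and 0 FPKM in CS-exposed libraries, the reverse order except that untreated Ct replicate 3 was high in Eif2s3x, Xist and, in part, Eif2s3y. The X-linked helicase gene Ddx3x had the same order, 25.6 to 27.1 FPKM in replicates 1 and 2 and 32.5 to 33.6 FPKM in replicates 3 and 4. Eif1ax, the other X-linked member and the main eIF1A gene, did not follow it, with 12.6 to 14.5 FPKM in replicates 1 and 2 and 12.8 to 13.7 FPKM in replicates 3 and 4. No test of these orders was made, since these libraries are told apart by their own transcripts. A near-identical copy of 37.0% of the Eif2s3x transcript, the pseudogene Gm2223, was at 0.737 FPKM or less.

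**Figure D4:**
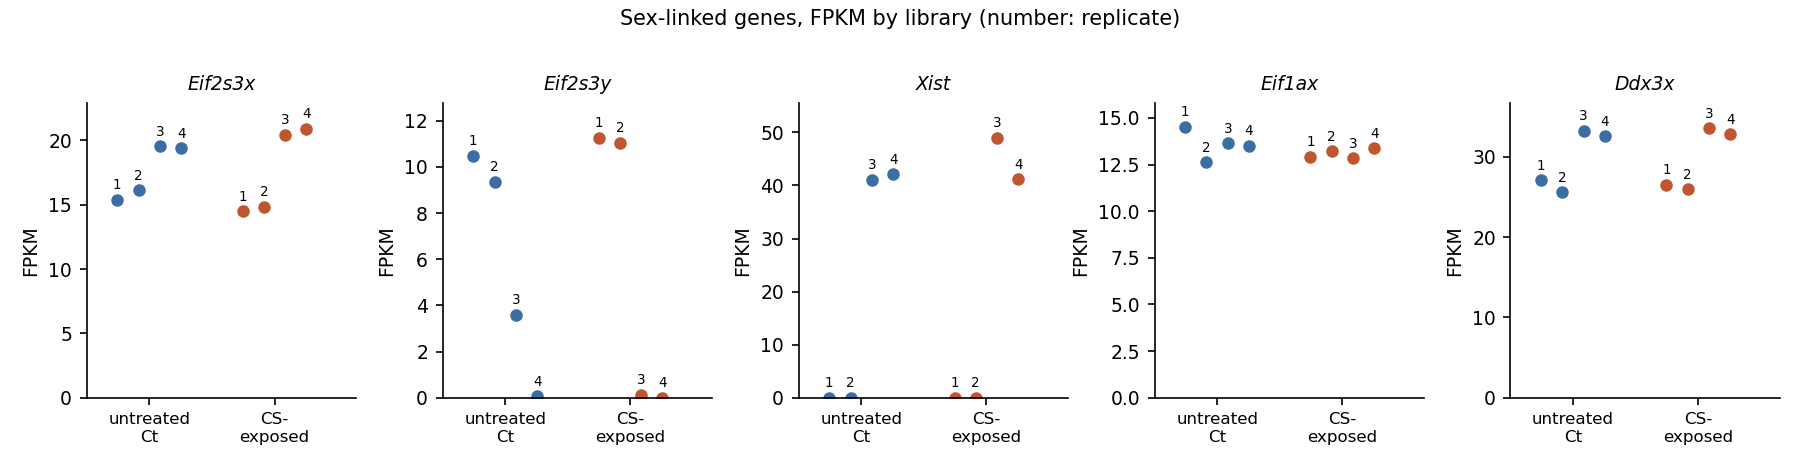
FPKM by library of the X-linked Eif2s3x, Eif1ax and Ddx3x, the Y-linked Eif2s3y and Xist, with the replicate number beside each point and axes from 0. Eif2s3x is at 14.5 to 16.1 FPKM in replicates 1 and 2 and at 19.4 to 20.9 FPKM in replicates 3 and 4 of both groups, and untreated Ct replicate 3 holds both Xist and Eif2s3y.

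The 13 eIF3 subunit genes tested spanned means from 9.42 to 309.8 FPKM, although the complex is assembled with its core subunits in equal number. Eif3h was the most abundant member of all, at 304, 308, 294 and 325 FPKM in untreated Ct and 315, 305, 310.0 and 317 FPKM in CS-exposed libraries. After it came Eif3k, Eif3f, Eif3g and Eif3e with means of 164, 131, 104 and 97.1 FPKM. Eif3a, Eif3b and Eif3c had means of 35.5, 57.1 and 33.3 FPKM, and Eif3d, which can bind the cap of some mRNAs, had 13.7 FPKM. Eif3l, Eif3m and Eif3i had means of 67.5, 60.3 and 40.2 FPKM. No eIF3 gene had an unadjusted p under 0.05. The median log2 difference of the 13 was 0.030, with 9 of them positive (69.2%, with 51.2% over all genes tested). After quantile normalization or rescaling without crystallins, which lowered the median of all genes too, 7 were positive. The summed FPKM of the eIF3 genes was 1077 to 1142 in untreated Ct and 1118 to 1145 in CS-exposed libraries.

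The order within eIF3 depends in part on the gene lengths behind the FPKM. From the reads recovered, the length used by the authors equaled that of the longest GENCODE transcript, within 2 bases, for 30 of the 49 members with reads. For Eif3k the length used was 773 bases where the longest transcript has 1782, and for Eif3e 1541 where it has 4123. These longest transcripts are not protein-coding ones. The longest protein-coding transcripts have 909 bases for Eif3k and 1506 for Eif3e, closer to the lengths used. Rescaled to the longest transcript, the mean of Eif3k would be 71.1 and that of Eif3e 36.3 FPKM, and Eif3k would fall below Eif3f and Eif3g. Eif3h stayed first at 299.7 FPKM, and Eif3d and Eif3j1 stayed last of the tested subunits, at 10.2 and 9.42 FPKM. An antisense gene, Gm17638 (0.128 FPKM or less), lies over 43.3% of the exon bases of Eif3d. Other genes overlap 20.2% of the exon bases of Eif3j1. What these overlaps took from the counts was not tested.

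**Figure D5:**
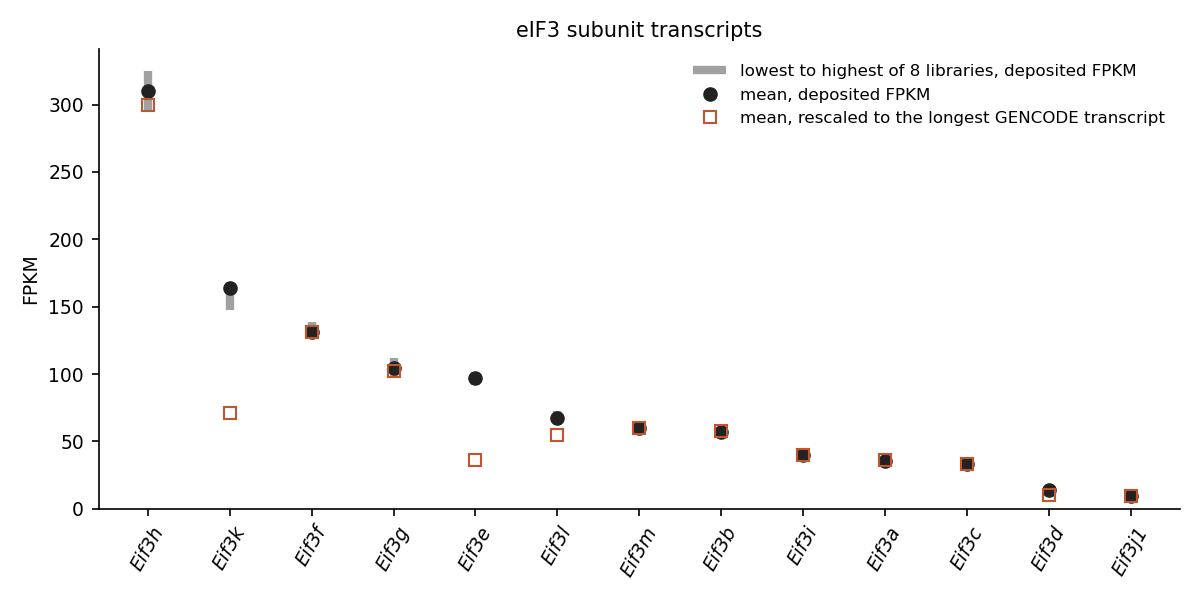
Mean FPKM of the 13 eIF3 subunit genes tested over 8 libraries (circles, with bars from the lowest to the highest library) and the same mean rescaled to the longest GENCODE transcript (squares). For some genes, Eif3k and Eif3e among them, that transcript is not a protein-coding one. Eif3k drops from 164 to 71.1 FPKM and Eif3e from 97.1 to 36.3 FPKM, and Eif3h stays first on both lengths.

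Eif3j1 and Eif3j2 encode the same loosely attached subunit. Eif3j1 was at 9.75, 8.42, 9.39 and 9.36 FPKM in untreated Ct and at 10.5, 8.32, 9.88 and 9.70 FPKM in CS-exposed libraries. Eif3j2, one of the 3 genes not tested, was at 0.338, 0.596, 0.669 and 0.511 FPKM and at 0.478, 0.692, 0.553 and 0.661 FPKM, from 16 to 38 reads. The whole Eif3j2 transcript is found almost identically in Eif3j1, so how the reads were divided between them is uncertain. The same holds in part for Eif3m. Of its longest protein-coding transcript (1283 bases, where the FPKM used 1964), 87.7% has a near-identical copy (Gm7658, at most 0.0983 FPKM). The effect of such copies on the counts was not tested.

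Of the eIF4A helicases, Eif4a2 was 2.47 times as abundant as Eif4a1. Eif4a2 was at 141, 141, 139.7 and 134 FPKM in untreated Ct and 138, 138, 145 and 141 FPKM in CS-exposed libraries, and Eif4a1 at 58.6, 59.3, 57.7 and 53.8 FPKM against 54.3, 54.8, 56.9 and 56.9 FPKM. The groups overlapped for both. Eif4a2 made up 70.4% to 71.3% of their sum in untreated Ct and 71.2% to 71.8% in CS-exposed libraries. Near-identical copies exist for 68.7% of the longest protein-coding Eif4a1 transcript (a pseudogene at 0.163 FPKM or less) and for 11.3% of the Eif4a2 transcript. That Eif4a1 transcript has 1774 bases, where the FPKM used 3167. What the copies did to the counts, and so to the ratio of the genes, was not tested. Eif4h, which like eIF4B stimulates the helicase, had a mean of 59.9 FPKM.

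The cap-binding genes were low beside the scaffold genes Eif4g1 and Eif4g2, but not beside Eif4g3 (mean 8.34 FPKM). Eif4e, the main cap-binding protein, was at 7.71, 8.84, 8.63 and 6.98 FPKM in untreated Ct and at 8.78, 7.11, 7.996 and 7.67 FPKM in CS-exposed libraries. Its relative Eif4e2, which mostly represses the mRNAs it binds, was higher, at 12.1, 11.9, 12.9 and 13.8 FPKM against 12.9, 12.3, 11.7 and 13.3 FPKM. Eif4e3 was at 12.3, 11.5, 12.8 and 11.4 FPKM against 11.4, 11.6, 13.5 and 12.6 FPKM. Both relatives stood above Eif4e in every library, and none of the 3 passed the test. Eif4e1b, an oocyte form, was listed at 0 in all 8 libraries and was not tested.

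For the scaffolds, Eif4g1, the main eIF4G, was at 37.1, 36.7, 34.9 and 35.0 FPKM in untreated Ct and 35.6, 35.7, 36.6 and 36.6 FPKM in CS-exposed libraries, 4.52 times the mean of Eif4e, or 7.83 times on the longest transcripts of both. Eif4g3, a second full-length eIF4G, was at 7.49, 8.29, 7.71 and 8.56 FPKM against 9.13, 8.81, 8.75 and 7.97 FPKM. CS-exposed replicates 1 to 3 were above all untreated Ct libraries and replicate 4 among them. Eif4g2 led the family with 2.42 times the mean of Eif4g1. It made up 65.7% to 68.5% of the 3 genes in untreated Ct and 65.3% to 65.96% in CS-exposed libraries. On the length of its longest transcript, 7995 bases where 5177 were used, Eif4g2 would have a mean of 56.5 FPKM and would still lead, by 1.57 times.

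The repressors of eIF4E lay below the median member. Eif4ebp1 was at 9.69, 13.8, 9.86 and 13.2 FPKM in untreated Ct and at 9.66, 12.1, 12.7 and 9.57 FPKM in CS-exposed libraries, and both groups ran over the same range. Eif4ebp2 was at 3.58, 3.35, 3.52 and 3.19 FPKM against 5.25, 3.47, 3.33 and 3.62 FPKM, where CS-exposed replicate 1 alone stood out. Eif4ebp3, not tested, was at 1.69, 0.613, 0 and 0.0743 FPKM against 1.47, 0, 0.131 and 0 FPKM, from 0 to 25 reads, and another protein-coding gene on the same strand covers 67.3% of it. Rescaled to their longest transcripts, Eif4ebp1 and Eif4ebp2 would have means of 5.56 and 1.13 FPKM. Eif4enif1, whose product carries eIF4E into the nucleus and represses bound mRNA, had a mean of 6.20 FPKM.

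The factors of subunit joining and beyond ran from Eif5a, among the most abundant members, to Eif5a2, the lowest tested. Eif5b, the GTPase that joins the large subunit, was at 165, 189, 164 and 176 FPKM in untreated Ct and 196, 181, 179 and 186 FPKM in CS-exposed libraries, and untreated Ct replicate 2 was the second highest of all. Another gene, Rev1, lies on the opposite strand over 16.8% of its exon bases and was at 4.36 FPKM or less. Eif5, which makes eIF2 release its GTP at the start codon, had a mean of 69.9 FPKM. Eif5a, whose product carries the rare amino acid hypusine and also serves elongation and termination, was at 295, 299.8, 283 and 289 FPKM in untreated Ct and 302, 286, 308 and 292 FPKM in CS-exposed libraries. Eif3h was above it in each of the 8 libraries, although the ranges of both genes overlapped. Eif5a2 was far lower, at 1.95, 1.73, 2.54 and 1.84 FPKM against 1.99, 1.87, 1.98 and 2.35 FPKM, and made up 0.575% to 0.889% of the sum of both. Eif6, which keeps the large subunit from joining too early, was at 17.3, 18.1, 16.2 and 16.5 FPKM against 16.2, 16.9, 16.99 and 16.3 FPKM. None of these passed the test in limma, and Eif5b was higher in CS-exposed mice in limma-voom (unadjusted p = 0.0239) and without untreated Ct replicate 2 (unadjusted p = 0.0163).

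For eIF1A, Eif1ax was 3.54 times as abundant as Eif1a and was at 14.5, 12.6, 13.7 and 13.5 FPKM in untreated Ct against 12.9, 13.2, 12.8 and 13.4 FPKM in CS-exposed libraries. Eif1ad, named for its eIF1A-like domain, had a mean of 3.88 FPKM.

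Many mRNAs of the translation machinery begin with a C followed by a run of pyrimidines, the TOP motif, through which mTORC1 and LARP1 set their translation. A window of 20 bases on each side of the annotated RefSeq start was read for 38 members, on the strand of the gene, and a C at the start followed by at least 4 bases that are C or T was counted. Some genes have several annotated starts. Of 50 windows of the 38 members 2 had it, those of Eif3f and Eif2s3x, and of all 32851 windows 2.505% had it. Counted by gene, 3.01% of all 27025 genes had it at any start. Both windows are printed 5′ to 3′ because these members recur above, Eif3f for its separated groups and Eif2s3x for its spread. Capitals mark the 11-base tract from the start. The windows lie on GRCm38.p6 at chr7:108934395-108934434 (plus strand) and chrX:94212632-94212671 (minus strand).
Eif3f: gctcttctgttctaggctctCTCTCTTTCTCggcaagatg
Eif2s3x: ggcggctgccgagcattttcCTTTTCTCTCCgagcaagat

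The match describes letters at an annotated start and not a start measured in FC. Windows were not read for Eif1a, Eif2b3, Eif3e, Eif3h, Eif3i, Eif3j2, Eif4e1b, Eif4e3, Eif4ebp1, Eif4ebp3, Eif4g2 and Eif6.

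The genes that act with or upon the initiation factors were counted in the same way. Of 67 genes in 6 lists (eIF2 kinases, integrated stress response, initiation partners, mTORC1, elongation and termination, mitochondrial initiation), 58 were tested and 2 had an unadjusted p under 0.05, 3.45% of them, with 4.83% over all genes tested. Pabpc1, the poly(A)-binding protein that contacts eIF4G, was at 294, 300.6, 259 and 310.7 FPKM in untreated Ct and 320.8, 311.0, 311.1 and 335 FPKM in CS-exposed libraries. Untreated Ct replicate 4 nearly reached the lowest CS-exposed libraries, and untreated Ct replicate 3 was the lowest. Its log2 difference was 0.14 (SE 0.055, limma unadjusted p = 0.0296, adjusted p = 0.956), and without untreated Ct replicate 3 the unadjusted p was 0.0737. The call was also lost without CS-exposed replicate 1 (unadjusted p = 0.0573) or replicate 4 (unadjusted p = 0.0822), with median centring (unadjusted p = 0.0925), with eBayes without a trend (unadjusted p = 0.111) and without both libraries numbered 3 (unadjusted p = 0.0637). Without untreated Ct replicate 3 its log2 difference was 0.082.

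Atf5, a transcription factor translated preferentially when eIF2 is phosphorylated, was at 22.1, 19.9, 20.9 and 21.3 FPKM in untreated Ct and at 23.4, 24.4, 22.5 and 23.3 FPKM in CS-exposed libraries. The groups did not overlap, and the log2 difference was 0.15 (SE 0.059, limma unadjusted p = 0.0251, adjusted p = 0.956). Without untreated Ct replicate 2 the unadjusted p was 0.0757, and without CS-exposed replicate 2 it was 0.0710. The call was also lost in limma-voom (unadjusted p = 0.0518), after quantile normalization (unadjusted p = 0.0534) and after rescaling without crystallins (unadjusted p = 0.0543). The 10 tested genes of the integrated stress response had a median log2 difference of 0.097, with 6 positive, and no other gene of the list had a p under 0.05 in limma. The genes that passed under another setting, here and for Eif5b, Eef1a1 and Mtor, are named after their values were seen. Ppp1r15a, whose product helps to dephosphorylate eIF2, was higher with an unadjusted p under 0.05 in 4 of 22 alternatives, limma-voom and the replicate block among them. Phgdh, an enzyme of serine synthesis, was lower in 3, Atf4 was higher in 2, and Psat1 was lower in 1. None of the 4 passed without untreated Ct replicate 3 (unadjusted p = 0.174, 0.421, 0.206 and 0.450). Without that library the log2 difference of Phgdh went from -0.27 to -0.11 and that of Atf4 from 0.15 to 0.092, and without both libraries numbered 3 that of Atf4 was 0.047 (unadjusted p = 0.482). The most abundant gene of the list, Nupr1, was at 129, 150.3, 179 and 137 FPKM against 135, 154, 147 and 144 FPKM.

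Of the 4 eIF2 kinases tested, none was called in limma, and the most abundant, Eif2ak1, was at 3.33, 3.53, 3.17 and 3.09 FPKM against 3.25, 3.01, 3.12 and 2.97 FPKM. The 10 mTORC1 genes tested had a median log2 difference of -0.0041 and no call in limma, although Mtor was lower without CS-exposed replicate 3 (unadjusted p = 0.0396), and Akt1s1, the most abundant, was at 31.4, 33.4, 30.8 and 31.2 FPKM against 32.3, 31.3, 32.4 and 30.6 FPKM. Of the 22 initiation partners tested, 11 were positive and only Pabpc1 was called. Among 11 tested genes of elongation and termination, 9 were positive (81.8%, with 51.2% over all genes tested). Their median was 0.019, and none was called in limma. The median turned to -0.0063 with 5 positive after quantile normalization, where Eef1a1 was lower in CS-exposed mice (unadjusted p = 0.0494), and to -0.0036 with 4 positive after rescaling without crystallins, which took the median of all genes to -0.018. The median of the list was 0.0049 without CS-exposed replicate 3, 0.0072 without untreated Ct replicate 3, 0.012 without untreated Ct replicate 2, 0.029 without CS-exposed replicate 2 and 0.0023 without both libraries numbered 3. Eef1a1, which brings aminoacyl-tRNA to the ribosome, was at 4384, 4304, 4185 and 4366 FPKM against 4228, 4165, 4416 and 4528 FPKM. Mtif2, the mitochondrial initiation factor tested, was at 3.76, 2.61, 3.28 and 2.82 FPKM against 3.20, 3.43, 2.84 and 3.24 FPKM. In each of these genes but Pabpc1 and Atf5 the groups overlapped.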

How the data were processed

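RNA-Seq libraries of lens FC from 4 pools of CS-exposed and 4 pools of untreated Ct mice were compared. Reads (150 bases, paired) were aligned by the authors to GRCm38 with STAR 2.5 and assigned to genes by HTSeq 0.6.1. The deposited values are FPKM per library, and the annotation release and strand setting are not given in the sources used here. The deposited group means and the fold changes and p-values of the authors' own comparison (DESeq2, per the labels) were not used. Members and gene lists were chosen with earlier results of these data known. Groups and replicate numbers came from sample titles.

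Genes whose mean reached 1.0 FPKM in untreated Ct or CS-exposed mice (9794 of 35275) were tested on log2(FPKM + 0.1) by limma 3.58.1 in R 4.3.3 (lmFit, eBayes with a trend, two-sided, Benjamini-Hochberg over all genes tested). This scale understates changes of low genes. Called means an unadjusted p under 0.05. P-values measure the spread between pools. Exact permutation tests used all 70 assignments of the libraries. The fit was tested on simulated data. The count model the study used was not applied to the FPKM, which are not counts, nor to the reads recovered from them. Whole reads were recovered from the steps of the FPKM for 99.7% of tested genes (tolerance 0.02 reads) and served for depth, gene lengths and a limma-voom alternative, and the estimates cover counting error only. Near-identical copies were matched with blastn 2.17.0 (97% identity over at least 150 bases) against GENCODE M21 transcripts, and start windows came from RefSeq GRCm38.p6.

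Values of all 8 libraries are given for members with an unadjusted p under 0.05 or groups that do not overlap, the 3 members with the smallest p in each direction, the most abundant member of each complex or family, and members with a close paralogue. From the other lists, genes with p under 0.05 and the most abundant gene are given. Alternatives were pseudocounts of 1 and 0.01, other minimum FPKM, median centring, quantile normalization, rescaling without crystallins, other eBayes settings, limma-voom, a replicate block and leaving out each library. Leaving out both libraries numbered 3 and rescaling to the longest transcript were chosen after seeing the data. Same-numbered libraries came from different mice, and their deviations from the group means correlated by 0.012 to 0.16, not over 0.1 in every pair, so they were not treated as pairs. Other figures used Python 3.11.15 and matplotlib 3.10.9.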

Additional observations from a re-analysis of the deposited data

Results flagged for a closer look

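In 98 sets of 4 libraries (49 initiation factor genes in each group), 6 held a library far from the other 3 by Dixon's test at the 95% level, and chance alone flags about 1 in 20 sets, or 4.9 of 98. Eif3k, at 166 to 168 FPKM in untreated Ct replicates 1, 2 and 4, had 147 FPKM in replicate 3. Eif4g2 was at 88.0 FPKM in CS-exposed replicate 3 and at 84.2 to 84.3 FPKM in the others, a small gap beside a very narrow spread. Eif3d was at 10.7 FPKM in CS-exposed replicate 4 and at 14.1 to 14.5 FPKM in the others. Eif4enif1, at 6.45 to 6.52 FPKM in untreated Ct replicates 2 to 4, had 5.88 FPKM in replicate 1. Eif4ebp2 was at 5.25 FPKM in CS-exposed replicate 1 and at 3.33 to 3.62 FPKM in the others. Eif4ebp3 was at 1.47 FPKM in CS-exposed replicate 1 and at 0.131 FPKM or less in the others. No library was flagged for more than 2 of these genes.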

How the results depend on the processing

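Of the results given for all initiation factor genes, the count of 2 genes with an unadjusted p under 0.05 was 0 without both libraries numbered 3 and ranged from 1 to 4 when each library was left out in turn; the same genes, Eif1b and Eif4a3, were counted with no others under 14 of the 22 alternatives, and Eif1b under 21. The median log2 fold change of 0.018 (0.0043 over all genes) was -0.0028 after quantile normalization (-0.0018 over all genes) and -0.0042 after rescaling without crystallins, which took all genes to -0.018. It was 0.0025 (24 of 47 positive) without both libraries numbered 3 (-0.0039 over all genes), and ranged from 0.010 to 0.039 when each library was left out. The 473 genes counted over all genes became 226 with a minimum of 5 FPKM and 862 without a minimum, from fewer and more genes tested. For the other translation lists, the count of 2 was 1 without both libraries numbered 3, centred on the median, with eBayes without a trend and without crystallins, 4 with limma-voom and 4 with a replicate block, and ranged from 1 to 4 when each library was left out; the cause was not tested. With the replicate block, which is the fit of the numbers as pairs, the initiation factor count stayed at 2 (Eif1b and Eif4a3), and 6 of 8 libraries correlated best with the same-numbered library. Under no alternative did an initiation factor gene reach an adjusted p under 0.05 in limma, and the log2 fold changes of the 7 initiation factor genes given with one, of Pabpc1, Atf5 and Gm26917 kept their sign under every alternative that tested them. Low genes rest on few reads (16 to 38 for Eif3j2, which was not tested).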
